A study of Rattus norvegicus with 16 samples.

Results

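Genes of homologous recombination and of the DNA damage response were followed in PCCl3 cells, a differentiated line of rat thyroid follicular cells, after silencing of *Pax8*, a paired domain transcription factor needed for thyroid differentiation. The members were *Brca1*, *Brca2*, *Bard1*, *Xrcc1*, *Gadd45a* and *Mdm2*, chosen by name with earlier results of these data known. Their probes were found by resolving the RefSeq identifier that the array gives for each probe to the listed symbol. Of the 6 genes, 5 had a probe named in this way, with 6 probes in all among 41012 probes tested, of which 10768 carried a name and represented 8899 genes. No probe resolved to *Mdm2*, a ubiquitin ligase of the damage response, and it was not analysed here. Cells in which *Pax8* was silenced by transfected siRNA (si*Pax8*) were compared on 8 two-colour Agilent arrays with wild type (wt) cells, and on 8 with cells that had received a scrambled siRNA (siScramble). Both siRNAs were used at 10 ng/ml and RNA was taken 48 hours after transfection. Each comparison had 4 biological replicates, each hybridized in both dye orientations. All 3 conditions were cultures of the same line in medium with serum and a mixture of hormones, and the study's descriptions differ on whether the wt cells had received the transfection reagent.

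In homologous recombination, a broken chromosome is repaired from an intact copy, mostly in dividing cells that have replicated their DNA. Brca1 works as a pair with Bard1, which together form a ubiquitin ligase at the break, and Brca2 loads the recombinase onto the exposed single strand. Xrcc1 is the scaffold on which the enzymes of single-strand break and base excision repair assemble. Gadd45a is a small stress protein induced by DNA damage and by other stresses, with described roles in growth arrest, and its promoter is a known place of regulation. Dividing thyroid cells and thyroid cells making hormone, a process that generates hydrogen peroxide, both rely on these repair routes.

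The promoters of *Gadd45a*, the member with the largest change, and of the partners *Brca1* and *Bard1* are shown as RefSeq gives them for the assembly GRCr8. The values of the partners against wt cells had opposite signs, and that of *Bard1* was not called. Against siScramble cells both partners were below 0 and neither was called. Each window runs 5′ to 3′ on the strand of the gene from 250 bases before to 50 bases after the annotated gene start. The *Gadd45a* window is chr4:97486750-97487049, the *Brca1* window chr10:86977532-86977831 and the *Bard1* window chr9:80143706-80144005, all on the minus strand. Capitals mark the octamer ATTTGCAT and the CCAAT box in *Gadd45a*, the CCAAT box and TGACGT, the core shared by cyclic AMP response elements, in *Brca1*, and a GC box, GGGCGG on the other strand, in *Bard1*.
Gadd45a: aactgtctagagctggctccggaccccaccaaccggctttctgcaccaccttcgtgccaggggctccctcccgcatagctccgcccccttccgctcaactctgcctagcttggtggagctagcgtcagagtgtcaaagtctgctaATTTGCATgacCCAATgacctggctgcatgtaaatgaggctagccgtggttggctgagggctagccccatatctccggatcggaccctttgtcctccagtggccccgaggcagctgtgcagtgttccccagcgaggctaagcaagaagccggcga
Brca1: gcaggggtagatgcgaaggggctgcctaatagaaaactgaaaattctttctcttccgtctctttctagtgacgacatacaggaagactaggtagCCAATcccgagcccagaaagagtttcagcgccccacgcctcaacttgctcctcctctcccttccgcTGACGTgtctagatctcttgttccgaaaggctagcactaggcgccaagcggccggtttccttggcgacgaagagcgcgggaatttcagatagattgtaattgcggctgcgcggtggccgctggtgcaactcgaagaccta
Bard1: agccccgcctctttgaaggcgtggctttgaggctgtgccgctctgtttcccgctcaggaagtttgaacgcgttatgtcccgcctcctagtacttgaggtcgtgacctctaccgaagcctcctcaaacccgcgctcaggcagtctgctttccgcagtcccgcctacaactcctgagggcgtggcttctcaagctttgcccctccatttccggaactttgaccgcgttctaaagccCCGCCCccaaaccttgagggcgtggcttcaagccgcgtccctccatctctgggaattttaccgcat
Counted from the gene start, with the base before it as -1, the *Gadd45a* octamer lay at -105 to -98 and its CCAAT box at -94 to -90, with no overlap. The *Brca1* CCAAT box lay at -156 to -152 and its TGACGT at -90 to -85, and the *Bard1* GC box lay at -16 to -11. Both strands of all 33469 promoter windows of this length were searched for the same letters. The octamer was found in 1.78% of them, CCAAT in 37.5%, TGACGT in 7.94% and GGGCGG in 33.1%. GCGTGAC, a stretch of the paired domain consensus of Pax proteins, was in 2% of all windows and in none of the 6 member windows. *Gadd45a* also held a GC box and *Brca2* held TGACGT past the gene start, *Mdm2* held CCAAT and GC boxes, and *Xrcc1* held none of the 5 motifs. These matches describe the letters of the windows only.

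Values are log2 ratios of si*Pax8* over control cells, averaged over the dye orientations of a replicate, and are below 0 where si*Pax8* cells had less of the transcript. A probe was called at an adjusted p below 0.005 from limma with Benjamini-Hochberg adjustment over all 41012 probes, which is the study's threshold, and a gene was called where every probe of it was, in 1 direction. Per channel, 51% to 59.5% of spots were well above background. The target itself, *Pax8* (probe A_43_P12538, NM_031141), gave -0.84, -0.57, -0.59 and -0.26 relative to wt, a mean of -0.56 ± 0.24 (SD, n = 4; limma adjusted p = 0.000496), or 67.6% of the wt level. That call ended without replicate 3 (-0.56, limma adjusted p = 0.00576), on the arrays with si*Pax8* in Cy3 (-0.47, limma adjusted p = 0.0185) and with Agilent's processed signals (-0.58, limma adjusted p = 0.0132). Against siScramble cells it gave -0.58, -0.29, -0.12 and -0.01, with a mean of -0.25 ± 0.25 (SD, n = 4; limma adjusted p = 0.147), which was short of the threshold. Thyroid markers were present in all conditions: 9 of 10 measured markers, *Pax8* among them, were lower than in wt cells, beside 9.41% of all named genes. Against siScramble cells 1 of 10, *Tg*, was lower, beside 1.25%. In 6 of the 10 the ratio to wt cells was below that to siScramble cells by a called difference, beside 2.74% of all named genes. The summed intensity of the 10 markers was 123000 to 131000 in si*Pax8* against 192000 to 208000 in wt cells, and 132000 to 134000 against 152000 to 180000 in siScramble cells. Of 12 probes for markers of fibroblasts, endothelial cells, leukocytes and C cells, 3 were well above background on all arrays, and the summed intensity of each list was at most 958. *Cd68* of the leukocyte list was called against wt cells (0.30, limma adjusted p = 0.000829) and not against siScramble cells (0, limma adjusted p = 0.986). *Itgam*, the other measured gene of that list, had -0.04 against wt cells and was not called. In bulk RNA of this line, a fall in every cell and a fall in part of the cells cannot be told apart.

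Against wt cells, 2 of the 5 measured members were called, *Gadd45a* as higher and *Brca1* as lower in si*Pax8* cells. The share over all named genes was 16.6% in this comparison (7.19% higher, 9.41% lower). Against siScramble cells 1 of the 5, *Gadd45a*, was called, where the share over all named genes was 2.87% (1.62% higher, 1.25% lower). The split of that share depended on the normalization: 483 probes were higher and 348 lower, and 408 and 168 without quantile normalization. The difference between the comparisons was called for *Gadd45a* and *Bard1*, beside 4.44% of all named genes (1.7% higher, 2.74% lower). Both comparisons use si*Pax8* cells, whose samples bear the same numbers in the study's scheme of the arrays, without a statement that they were the same samples. Where they were, this difference amounts to siScramble over wt cells measured indirectly.

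*Gadd45a* (probe A_44_P216395, NM_024127) was the member that changed most. Its log2 ratio to wt cells was 1.76, 1.69, 1.71 and 1.79 in the 4 replicates. The replicates lay close together, and each of the 8 arrays was above 0. The mean was 1.74 ± 0.05 (SD, n = 4; limma adjusted p = 8.48e-09), a 3.34-fold higher level in si*Pax8* cells. Against siScramble cells the replicates gave 1.07, 1.01, 0.90 and 0.93, all lower than any replicate against wt cells. The mean was 0.98 ± 0.08 (SD, n = 4; limma adjusted p = 5.73e-05), or 1.97-fold, and the 8 arrays lay between 0.84 and 1.18. Within the 4 slides the ratio was 1.66 to 1.79 for wt and 0.93 to 1.05 for siScramble as the control. The ratios differed between the comparisons by 0.76, which was called (limma adjusted p = 6.13e-06). With the signals that Agilent's software had processed, the ratio to siScramble cells was 1.00 with a limma adjusted p of 0.00552, which ended that call.

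The *Gadd45a* intensities of the single channels followed the same order. On the log2 scale wt cells had 12.39, 12.32, 12.28 and 12.22, and siScramble cells 12.93, 13.09, 13.14 and 13.13. The si*Pax8* cells had 14.20, 14.04, 14.02 and 14.04 on the arrays with wt cells and 14.02, 14.12, 14.02 and 14.09 on those with siScramble cells. The 3 conditions did not overlap. The siScramble cells, which carry an siRNA without a *Pax8* target, thus lay between wt and si*Pax8* cells, on arrays other than those of the wt cells. The plot of log2 ratios by replicate sets *Gadd45a* beside the other members and *Pax8*.

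**Figure D1:**
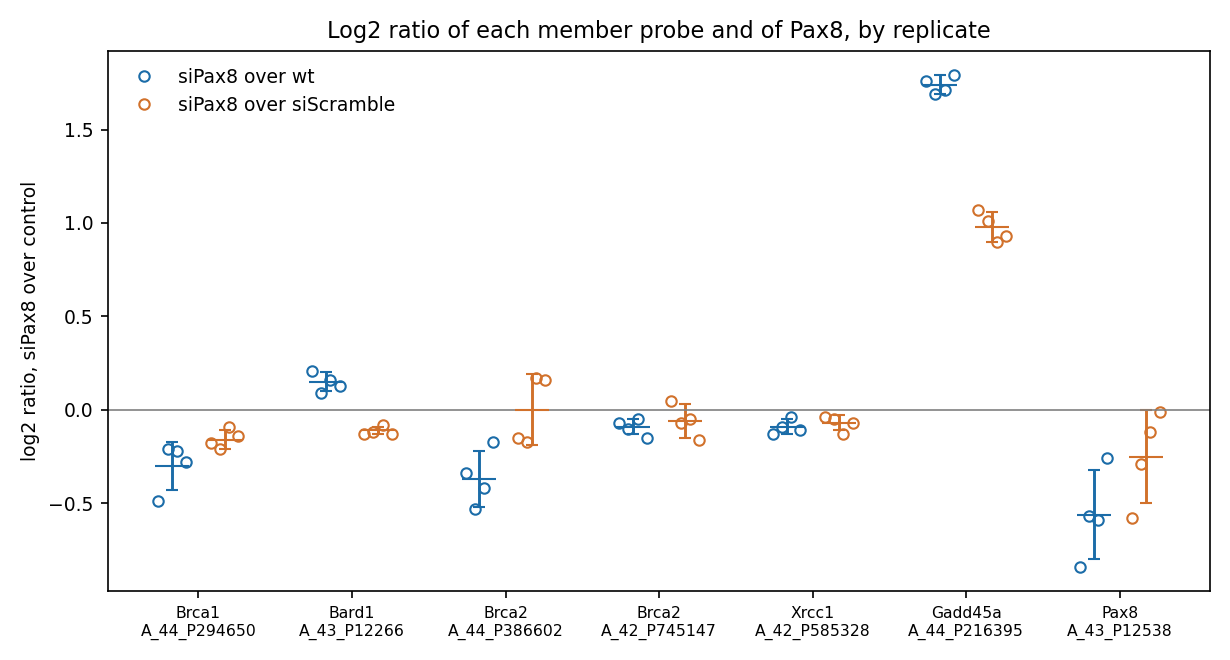
Log2 ratio of si*Pax8* over wt (blue) and over siScramble cells (orange) for the 6 member probes and the *Pax8* probe. Open circles are the 4 biological replicates, each a mean of both dye orientations, and bars give the mean ± SD. *Gadd45a* sits at 1.69 to 1.79 against wt and 0.90 to 1.07 against siScramble cells, whereas every other member probe lies between -0.53 and 0.21.

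A further probe, A_44_P122675, carries an expressed sequence tag that the study's annotation names *Gadd45a* and the reference used here does not. It was dim, well above background in wt cells on 3 of 8 arrays and in siScramble cells on 7 of 8. Its log2 ratio was 0.35 ± 0.10 to wt cells (SD, n = 4; limma adjusted p = 0.000213) and 0.24 ± 0.08 to siScramble cells (SD, n = 4; limma adjusted p = 0.0103). Those values were far below those of the RefSeq probe. With Agilent's processed signals, which lack the offset of 50 added here before the log, they were 1.63 and 0.91.

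*Brca1* (probe A_44_P294650, NM_012514) fell relative to wt cells. The replicates gave -0.49, -0.21, -0.22 and -0.28, and all 8 arrays were below 0. The mean was -0.30 ± 0.13 (SD, n = 4; limma adjusted p = 0.0013), or 81.1% of the wt level. Against siScramble cells the replicates were -0.18, -0.21, -0.09 and -0.14, again with all 8 arrays below 0. The mean of -0.16 ± 0.05 (SD, n = 4; limma adjusted p = 0.0218), 89.7% of the siScramble level, missed the adjusted p of 0.005. The comparisons differed by -0.15, which was not called (limma adjusted p = 0.189). The call against wt cells ended without replicate 3 (-0.33, limma adjusted p = 0.00618), without replicate 4 (-0.31, limma adjusted p = 0.0077), on the arrays with si*Pax8* in Cy3 (-0.31, limma adjusted p = 0.0293) and with Agilent's processed signals (-0.43, limma adjusted p = 0.0259). Intensities were 8.11 to 8.33 in wt, 8.03 to 8.13 in siScramble and 7.82 to 8.05 in si*Pax8* cells on the log2 scale, so siScramble cells overlapped with both.

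*Bard1* (probe A_43_P12266, NM_022622), the partner of *Brca1*, had values of opposite sign in the comparisons, neither of which was called. The value against wt cells was called with the slide as a random block (limma adjusted p = 0.00316) and with both comparisons in 1 fit (limma adjusted p = 0.00148). The 2 dye swaps of a replicate were on different slides, so the slide block does not treat them as 1 replicate. Against wt cells the replicates gave 0.21, 0.09, 0.16 and 0.13, with a mean of 0.15 ± 0.05 (SD, n = 4; limma adjusted p = 0.00696). Against siScramble cells they gave -0.13, -0.12, -0.08 and -0.13, with a mean of -0.11 ± 0.02 (SD, n = 4; limma adjusted p = 0.0365). The replicates of the comparisons did not overlap. The difference of 0.26 was called (limma adjusted p = 0.00149), but not in 8 of 15 alternatives, among them the omission of any 1 of the 4 replicates, where it was 0.23 to 0.28 with limma adjusted p of 0.00791 to 0.0173. Its ratios also moved with the dye: with si*Pax8* in Cy5 alone they were 0.06 to wt and -0.21 to siScramble cells, and with si*Pax8* in Cy3 alone 0.23 and -0.01. The difference was 0.28 and 0.25 in these orientations. The log2 intensities were 11.00 to 11.09 in wt, 11.18 to 11.28 in si*Pax8* and 11.32 to 11.36 in siScramble cells, without overlap.

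*Brca2* was measured by 2 probes of the same transcript (NM_031542), which gave different results, and the gene was therefore not called. Probe A_44_P386602 gave -0.34, -0.53, -0.42 and -0.17 against wt cells, all below 0, with a mean of -0.37 ± 0.15 (SD, n = 4; limma adjusted p = 0.000821), or 77.6% of the wt level. Its call ended without replicate 3 (-0.35, limma adjusted p = 0.009), on the arrays with si*Pax8* in Cy3 (-0.27, limma adjusted p = 0.0464) and with Agilent's processed signals (-0.51, limma adjusted p = 0.0133). Against siScramble cells the replicates fell on both sides of 0, with -0.15, -0.17, 0.17 and 0.16, a mean of 0.00 ± 0.19 (SD, n = 4; limma adjusted p = 1). Its difference of -0.37 between the comparisons was not called (limma adjusted p = 0.0345), except with the replicate block, which pairs equal replicate numbers across the comparisons (limma adjusted p = 0.00287). The dimmer probe, A_42_P745147, gave -0.07, -0.10, -0.05 and -0.15 against wt cells, with a mean of -0.09 ± 0.04 (SD, n = 4; limma adjusted p = 0.0477), and -0.06 ± 0.09 against siScramble cells (SD, n = 4; limma adjusted p = 0.514). The offset added before the log shrinks ratios of dim probes. Agilent's processed signals, which lack this offset, gave -0.24 for A_42_P745147 against wt cells (limma adjusted p = 0.0464). Against siScramble cells they gave -0.16 (limma adjusted p = 0.34). With these signals both probes were thus below 0 against wt cells, and neither was called. Where each probe lies on the transcript was not determined.

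*Xrcc1* (probe A_42_P585328, NM_053435) had values near 0. With wt cells as the control the replicates were -0.13, -0.09, -0.04 and -0.11, and with siScramble cells -0.04, -0.05, -0.13 and -0.07. The means were -0.09 ± 0.04 (SD, n = 4; limma adjusted p = 0.0472) and -0.07 ± 0.04 (SD, n = 4; limma adjusted p = 0.175). All 16 arrays were below 0, at levels of 93.8% of wt and 95% of siScramble cells, and neither value passed the threshold. All 6 member probes were well above background in every condition on every array, none was saturated, and none was marked as an outlier. The plot of intensities by condition shows the single channels.

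**Figure D2:**
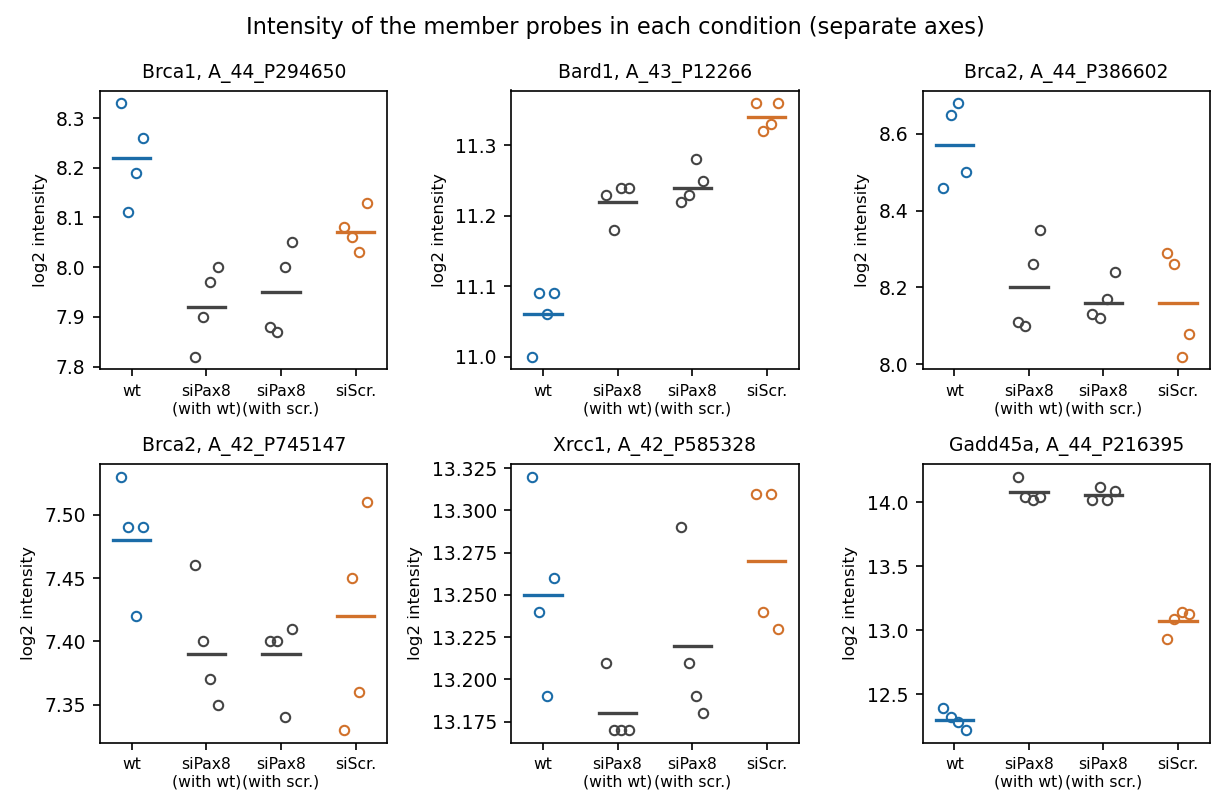
Log2 intensity of each member probe in wt cells, in si*Pax8* cells on the arrays with wt and on those with siScramble (scr.) cells, and in siScramble (siScr.) cells. Open circles are the 4 replicates and lines their means, on a separate axis for each probe. The conditions are apart for *Gadd45a*, from 12.22 to 12.39 in wt up to 14.02 to 14.20 in si*Pax8* cells, and for *Bard1*. For *Brca1* wt and si*Pax8* cells are apart, and siScramble cells overlap with each.

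Genes of the same pathways were described with 6 lists. Of their 165 genes, 80 had a probe named through the reference and are called measured. The others may have probes without a name, as 10768 of 41012 probes carried one. Against wt cells 40 of the 80 genes were called (50%), 9 higher and 31 lower, where 16.6% of all named genes were. Against siScramble cells 7 were called (8.75%), 2 higher and 5 lower, where 2.87% of all were. Every measured list gene but *Smug1* was well above background in every condition on every array. Per channel, 51% to 59.5% of all spots were. The shares over all named genes, given here beside members and lists, thus include dim genes. No share among genes well above background was computed, and the part of brightness in the higher share of the lists was not tested. The median log2 ratio over the 80 genes was -0.12 and -0.09, beside -0.005 and -0.003 over all named genes. The count against wt cells was 22 without replicate 3 and 9 with Agilent's processed signals, settings in which the calls over all probes fell as well, from 6228 to 3351 and 1754. That against siScramble cells varied with the arrays used: it was 3 without replicate 1, 0 without replicate 2 or without replicate 3, and 2 without replicate 4, 0 with si*Pax8* in Cy5 alone and 21 with si*Pax8* in Cy3 alone. Over all probes 831 were called there, 351, 116, 182 and 367 without replicates 1 to 4, 208 with si*Pax8* in Cy5 alone and 3470 in Cy3 alone.

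Among partners in homologous recombination and the Fanconi pathway, 11 of 43 genes were measured. Of these, 3 were lower and 1 higher than in wt cells, beside 9.41% and 7.19% of all named genes. *Fancd2*, which marks DNA crosslinks for repair, was the gene called in both comparisons, at -0.30 ± 0.06 (SD, n = 4; limma adjusted p = 0.00016) to wt and -0.25 ± 0.06 to siScramble cells (SD, n = 4; limma adjusted p = 0.0043). Its value depended on the dye orientation: it was -0.54 and -0.48 with si*Pax8* in Cy3 alone and -0.06 and -0.03 with si*Pax8* in Cy5 alone. The call against siScramble cells ended without any 1 of the 4 replicates, at -0.27 to -0.23. *Rpa2*, a subunit of the protein that coats single-stranded DNA, was lower at -0.28 (not called with si*Pax8* in Cy3 alone, at -0.27), and *Abraxas1*, which holds a Brca1 complex together, at -0.19 against wt cells, the latter not without replicates 2, 3 or 4 (-0.20 to -0.17). *Nbn*, of the complex that senses breaks with Mre11 and Rad50, was higher at 0.31. *Mre11* and *Rad50*, named after their values were seen, had -0.11 and -0.01 and were not called. The median of the list was -0.08 against wt and -0.04 against siScramble cells.

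Base excision and single-strand break repair are the routes served by Xrcc1. Here 6 of 17 measured genes were lower than in wt cells, beside 9.41% of all named genes, and 11 were not called. The largest of these were *Mpg* at -0.39, *Tdg* at -0.29 and *Ung* at -0.28, which encode glycosylases that cut out damaged or misplaced bases. The call of *Mpg* ended without replicate 2 (-0.39) or replicate 3 (-0.40), and with si*Pax8* in Cy3 alone neither *Mpg* (-0.44) nor *Tdg* (-0.20) was called. By limma 0 of the 17 were called against siScramble cells, where 9 were lower and 0 higher at an unadjusted p below 0.05, beside 13.1% lower and 9.92% higher of all named genes. The medians were -0.04 and -0.09. Of 15 measured genes of damage signalling and end joining, 6 were lower than in wt cells and 9 were not called. The share lower over all named genes was 9.41%. *Tipin* had -0.44, *Chek1* -0.37 and *Timeless* -0.36. With si*Pax8* in Cy5 alone *Tipin* had -0.57 and *Chek1* -0.55, and in Cy3 alone they had -0.30 and -0.19 and were not called (limma adjusted p = 0.0214 and 0.0235). Tipin and Timeless form a pair that stabilizes stalled replication forks, and Chek1 is the kinase that acts on such forks. *Tipin* was the gene of this list whose difference between the comparisons was called (limma adjusted p = 0.00244), and not without replicates 2, 3 or 4 (-0.35 to -0.32). Against siScramble cells 0 of the 15 genes were called by limma, and 10 were lower and 0 higher at an unadjusted p below 0.05, read against the same 13.1% and 9.92% of all named genes.

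Genes linked to damage-induced growth arrest and apoptosis did not move in 1 direction. Of 16 measured genes, 8 were lower and 3 higher than in wt cells, beside 9.41% and 7.19% of all named genes. Against siScramble cells 0 were called by limma, and 5 were lower and 3 higher at an unadjusted p below 0.05 (13.1% and 9.92% of all named genes). *Gdf15*, a secreted stress cytokine, had -0.63, *Zmat3*, an RNA-binding protein, -0.57 and *Ccng1*, a cyclin induced by DNA damage, -0.51. *Cdkn1a*, the cell cycle inhibitor p21, named here after its values were seen, was also lower, at -0.30 over 2 probes. *Bbc3*, a trigger of apoptosis, was higher at 0.50, the paralogue *Gadd45g* at 0.36 and *Phlda3* at 0.33. The value of *Gdf15* was -0.88 with si*Pax8* in Cy3 alone and -0.37 in Cy5 alone. The value of *Phlda3* was 0.59 with si*Pax8* in Cy3 alone and 0.07 in Cy5 alone, and its call ended without replicate 3 (0.31). *Gadd45b*, the other paralogue, also named after its values were seen, had 0.02 and was not called. The differences between the comparisons were called for *Gdf15* (limma adjusted p = 0.00489) and *Zmat3* (limma adjusted p = 0.00379), the former not without replicates 2, 3 or 4 (-0.62 to -0.60) and the latter not without any 1 replicate (-0.44 to -0.33).

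In the integrated stress response, phosphorylation of the initiation factor eIF2 raises the transcription factor Atf4 and its targets. Of 9 measured genes of this list, 4 were higher and 1 lower than in wt cells, beside 7.19% and 9.41% of all named genes. The *Atf4* transcript had 0.11 to wt and -0.02 to siScramble cells, *Asns* 0.05 and -0.18, and *Cebpb* -0.08 and 0.1. These genes, named after their values were seen, were not called in either comparison. *Ddit3*, the transcription factor Chop, gave 1.55, 1.32, 1.18 and 1.34 against wt cells, a mean of 1.34 ± 0.15 (SD, n = 4; limma adjusted p = 4.73e-07). Against siScramble cells it gave 0.50, 0.34, 0.41 and 0.32, a mean of 0.39 ± 0.08 (SD, n = 4; limma adjusted p = 0.00155). As for *Gadd45a*, every replicate was higher against wt than against siScramble cells, and the difference was called (limma adjusted p = 2.85e-05). *Trib3*, a pseudokinase induced by Chop, was higher than in wt cells at 0.59. *Atf3*, a stress-induced repressor, was called in both comparisons with opposite signs, at 0.54 ± 0.09 to wt (SD, n = 4; limma adjusted p = 1.33e-05) and -0.29 ± 0.08 to siScramble cells (SD, n = 4; limma adjusted p = 0.00438). Against siScramble cells its call ended without any 1 replicate (-0.32 to -0.26), and that of *Ddit3* without replicate 2 (0.41) or replicate 3 (0.39). *Herpud1*, a protein of endoplasmic reticulum quality control, was lower than in wt cells at -0.23, a call that ended without any 1 of the 4 replicates (-0.26 to -0.19). *Ppp1r15a* (Gadd34) and *Ddit4*, named after their values were seen, also differed between the comparisons (limma adjusted p = 0.0044 and 0.00406). Their ratios were 0.46 and -0.22 to wt and 0.13 and 0.26 to siScramble cells.

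Homologous recombination is used in proliferating cells, and 12 genes of proliferation were measured. Of these, 7 were lower and 1 higher than in wt cells, beside 9.41% and 7.19% of all named genes. Against siScramble cells 3 were lower and 1 higher, beside 1.25% and 1.62%. The median was -0.25 in each comparison. *Birc5*, an inhibitor of apoptosis needed in mitosis, had -0.67 and *Rrm2*, a subunit of ribonucleotide reductase, -0.59 against wt cells. *Ccnb2* was lower in both comparisons, at -0.39 ± 0.05 to wt (SD, n = 4; limma adjusted p = 2.67e-05) and -0.37 ± 0.10 to siScramble cells (SD, n = 4; limma adjusted p = 0.00288). *Ccnb1* was called in both as well, at -0.28 ± 0.06 (SD, n = 4; limma adjusted p = 0.00224) to wt and -0.33 ± 0.06 (SD, n = 4; limma adjusted p = 0.00226) to siScramble cells. With si*Pax8* in Cy5 alone *Ccnb1* had -0.07 and -0.15. Against siScramble cells the calls of both cyclins ended without any 1 replicate, at -0.41 to -0.34 and -0.35 to -0.31, and against wt cells that of *Ccnb1* ended without replicates 2, 3 or 4 (-0.29 to -0.28). *Aurkb*, a mitotic kinase, was higher in both, at 0.31 ± 0.11 (SD, n = 4; limma adjusted p = 0.000539) and 0.36 ± 0.04 (SD, n = 4; limma adjusted p = 0.000835), the former not without replicate 3 (0.31) and the latter not without replicates 2 or 3 (0.34 and 0.38). *Ccna2*, named after its values were seen, was lower at -0.30 against siScramble cells (limma adjusted p = 0.00485) and had -0.19 against wt cells (limma adjusted p = 0.00617). The difference of 0.11 was not called (limma adjusted p = 0.374). The values of *Brca1* and *Fancd2* lay within those of these genes, and the part of proliferation in them was not tested. The plot of list genes gives every measured gene.

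**Figure D3:**
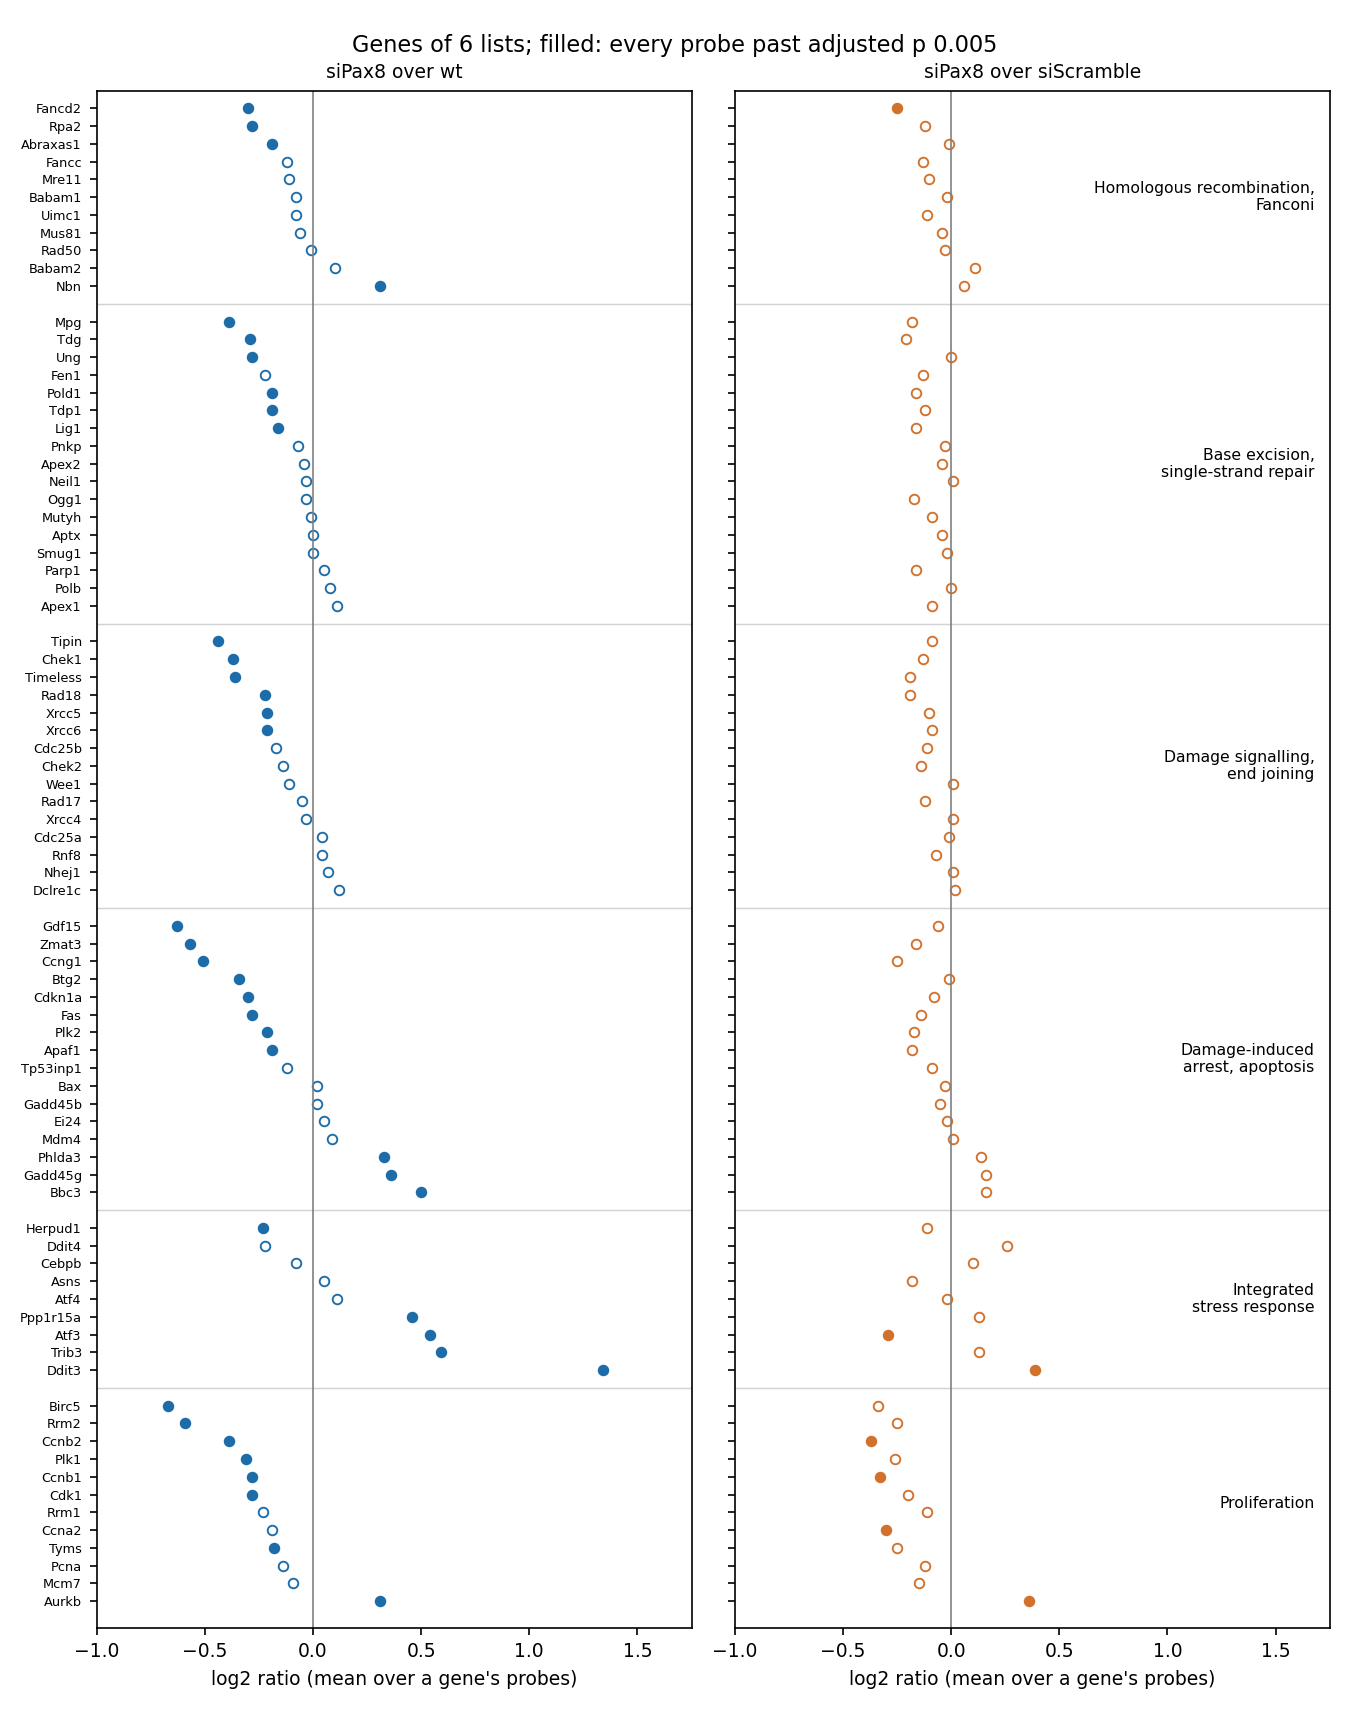
Log2 ratio of si*Pax8* over wt (left, blue) and over siScramble cells (right, orange) of the 80 measured genes of 6 lists, ordered within a list by the value against wt cells. Filled circles are genes with every probe past the adjusted p of 0.005: 40 against wt and 7 against siScramble cells. *Ddit3* lies furthest to the right on the left, at 1.34, and *Birc5* furthest to the left, at -0.67.

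The genes closest to *Brca1* and to *Gadd45a* over the 8 replicate values of both comparisons were found among 4084 named genes with a mean log2 intensity above 8, by the root mean square difference. The nearest to *Brca1* were *St8sia2*, *ST7*, *Fadd*, *Icmt* and *Snrpa*, at 0.055 to 0.066, with means of -0.33 to -0.27 against wt and -0.20 to -0.15 against siScramble cells. The nearest to *Gadd45a* were *Adm*, *Abca1*, *Acp3*, *Gbp2* and *Scnn1g*, at 0.21 to 0.32. *Adm*, which encodes adrenomedullin, had means of 1.62 and 0.73, and *Scnn1g*, the gamma subunit of the epithelial sodium channel, 1.35 and 1.18. The 8 values share the si*Pax8* condition, and all genes were read on the same arrays.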

How the data were processed

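Arrays of si*Pax8* against wt and against siScramble PCCl3 cells were used, grouped by the sample labels (dye and replicate number included). The authors deposited scanner files with spot intensities without normalization, from Feature Extraction (10.1.1.1 in the file headers), Agilent's processed intensities, and a table of normalized log2 ratios. Its column medians were -0.0001 to 0.0068, and it correlated at -0.999 to -0.993 with the ratios computed here, so it runs control over si*Pax8*. The array grid has 45018 spots, 1639 of them controls.

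Mean spot intensities were corrected with the median background, using limma 3.58.1 in R 4.3.3: normexp (offset 50), loess with weight 0 for control and outlier spots, removal of controls, and quantile normalization. The offset shrinks ratios of dim probes. Spots of a probe and dye swaps were averaged, and each comparison was fitted with lmFit and eBayes to 4 values, adjusted over 41012 probes. The fit was tested on simulated data. Alternatives covered background, normalization, signal source, dim and outlier spots, dye, replicate block, slide, joint fit and omission of replicates. Dye orientations of the same replicate number correlated at 0.12 to 0.51 in their deviations. All but replicate 2 against wt cells (0.12, and 0.2 with another number) correlated best with their own number. Genes named were the members, *Pax8*, list genes called in both comparisons or with the 3 largest called values in each direction against wt, and the 5 nearest genes. Genes outside this rule, the markers *Tg* and *Cd68* among them, were named after their values were seen. The members and lists were chosen with earlier results of these data known. Nothing says that replicates were separate cultures beyond the term biological replicate, and the number of arrays limits the precision. Names came from RefSeq (GRCr8), and columns of the authors' own comparisons were not used. Some list genes are not reported here and were left out of the lists.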

Additional observations from a re-analysis of the deposited data

Results flagged for a closer look

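The log2 ratio of *Gadd45a* to wt cells exceeded that to siScramble cells by 0.76 (limma adjusted p = 6.13e-06), and it was higher in 4 of 4 replicates against wt than in any against siScramble cells. The difference kept its call in all 15 alternatives, at 0.71 to 0.81. The corresponding difference of *Bard1* was 0.26 (limma adjusted p = 0.00149), with 4 of 4 replicates above 0 against wt and 4 of 4 below 0 against siScramble cells, and it lost its call in 8 of 15 alternatives, with limma adjusted p of 0.000906 to 0.0594 over all of them. Both stand out because the change differed between the comparisons.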

How the results depend on the processing

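The number of measured members called against wt cells was 2 and fell to 1 with Agilent's processed signals and with si*Pax8* in Cy3 alone, and it ranged from 1 to 2 without each replicate in turn. It rose to 3, with *Bard1*, with the slide as a random block and with both comparisons in 1 fit. The slide block takes the 2 dye swaps of a replicate, which were on different slides, as separate values. Calls gained with it, for members, list genes and all probes, therefore count technical swaps as replicates. Against siScramble cells it was 1, 0 with Agilent's processed signals and 2 with the slide as a random block. The difference between the comparisons was called for 2 members, and for 1 with Agilent's processed signals, with si*Pax8* in Cy5 or Cy3 alone, with the slide as a random block and without any 1 replicate. Of the list genes, 40 were called against wt cells, 9 with Agilent's processed signals, 24 with si*Pax8* in Cy3 alone and 22 to 40 without a replicate. Against siScramble cells 7 were called, and 0 with Agilent's processed signals and with si*Pax8* in Cy5 alone, 21 in Cy3 alone, 3 with loess only and with Aquantile, 4 with the deposited table, 11 with the slide as a block, 13 with the replicate block and with both comparisons in 1 fit, and 0 to 3 without a replicate. For the difference they were 7, and 2 with Agilent's processed signals, 4 in Cy5 and 3 in Cy3 alone, 4 with the slide as a block, 11 with the replicate block and 2 to 8 without a replicate. The cause was not tested.

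Same-numbered replicates of the comparisons deviated together with correlations of 0.39, 0.17, 0.04 and 0.56, of which not every one was above 0.1, and replicates 2 and 3 correlated at 0.4 with another number, so the replicate block rests on numbers only. It changed no call of a member gene, and called the difference of *Pax8* (-0.32, limma adjusted p = 0.00194, and 0.186 without the block). Directions reversed for values near 0: the ratio of *Brca2* probe A_44_P386602 to siScramble cells (0.00) was 0.00 in the deposited table, -0.08 with si*Pax8* in Cy3 alone, and -0.06 to 0.06 without a replicate, and the *Xrcc1* difference (-0.02) was 0.03 with si*Pax8* in Cy5 alone and -0.05 to 0.00 without a replicate. Of the other values of member probes, *Pax8* and the further *Gadd45a* probe under alternatives, 341 kept side and direction, 20 lost and 9 gained a call. Of those of named list genes, 455 kept side and direction and 116 lost a call. Over all probes, 831 against siScramble cells were called, 29 with Agilent's processed signals, 208 in Cy5 and 3470 in Cy3 alone, 2164 with the replicate block, 2409 with the slide as a block, 1728 with both comparisons in 1 fit and 116 to 367 without a replicate.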
